A study of Homo sapiens with 18 samples.

Results

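The transcriptomes of control A1847 cells, an established human high-grade serous ovarian cancer line, were compared after 8 h with 5 μg/ml tunicamycin or with vehicle. The members were the 6 control libraries, 3 per treatment, chosen by their labels out of 18 libraries in all. The other 12 came from A1847 cells with XBP1 knocked down by a short hairpin RNA or with CARM1 knocked out, each with both treatments. The labels give the control cells as wild type for CARM1 and XBP1, the vehicle received 0 μg/ml of the drug, and A1847 is a single line. The labels do not say that the 3 libraries of a group came from separate cultures, and the study describes its experiments as biologically independent repeats in general terms. If these libraries shared a culture, the p-values measure only a technical spread between them.

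Tunicamycin inhibits DPAGT1, the enzyme that starts the dolichol-linked sugar chain which is later moved onto asparagines of newly made proteins in the endoplasmic reticulum (ER). Proteins that lack these N-glycans misfold, and 3 membrane sensors answer: IRE1 splices XBP1 mRNA into the form that encodes the active factor XBP1s, ATF6 is cut in the Golgi to release another factor, and PERK phosphorylates eIF2α, which lowers protein synthesis while ATF4 is still translated. Together they form the unfolded protein response, which enlarges the folding and degradation machinery of the ER and, when stress persists, can lead to cell death. IRE1 can also cut other mRNAs at the ER membrane.

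The 6 libraries held 11774445 to 13788924 estimated counts, and the Pearson correlation of log2 CPM (counts scaled to a common library size) across genes was 0.987 to 0.989 within a group and 0.963 to 0.966 between groups. Levels are given as CPM with TMM scaling, and a gene was called higher or lower where edgeR's quasi-likelihood test gave a Benjamini-Hochberg adjusted p below 0.05. Mesenchymal and fibroblast-type markers ranged widely in this line: VIM stood at 513 CPM and COL1A2 at 858 CPM with vehicle, while FN1 stood at 4.47 CPM, PDGFRB at 4.57 CPM and ZEB2 and DCN at 0.999 and 0.939 CPM. Of 10 Müllerian and ovarian carcinoma markers, 8 (PAX8, WT1, MUC16, SOX17, MSLN, WFDC2, EMX2 and ESR1) had at most 3 counts in every library. The 4 endothelial markers were at or near 0, and the 9 immune markers summed to 1.36 to 3.06 CPM. Unlike the other levels, the sums of these marker lists are scaled by library totals alone, without TMM factors. The 12 epithelial markers summed to 344 to 370 CPM with vehicle and to 483 to 504 CPM with tunicamycin, mostly through KRT18, and the 8 fibroblast markers to 1360 to 1480 and 1110 to 1140 CPM. The part of these markers in the results below was not tested.

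Of 17317 genes tested, 41.9% were called, with 3808 higher (22.0%) and 3450 lower (19.9%), so that lowered genes were nearly as many as raised ones. Raised genes were the larger group at each of these steps of size with TMM scaling. At a fold change of at least 2 there were 1020 higher and 708 lower genes, at 4 there were 304 and 106, and at 8 there were 135 and 25. The median log2 fold change was 0.62 among the higher genes (quartiles 0.38 and 1.04), -0.56 among the lower genes (quartiles -0.90 and -0.36) and 0.00 over all genes. With library totals and no TMM factors the median of all genes was -0.08 and the split was 3049 higher and 4329 lower, so the share of calls that were higher moved from 52.5% to 41.3%. The 2 groups of libraries did not overlap for 8640 genes (49.9%), and 254 called genes had overlapping groups.

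**Figure D1:**
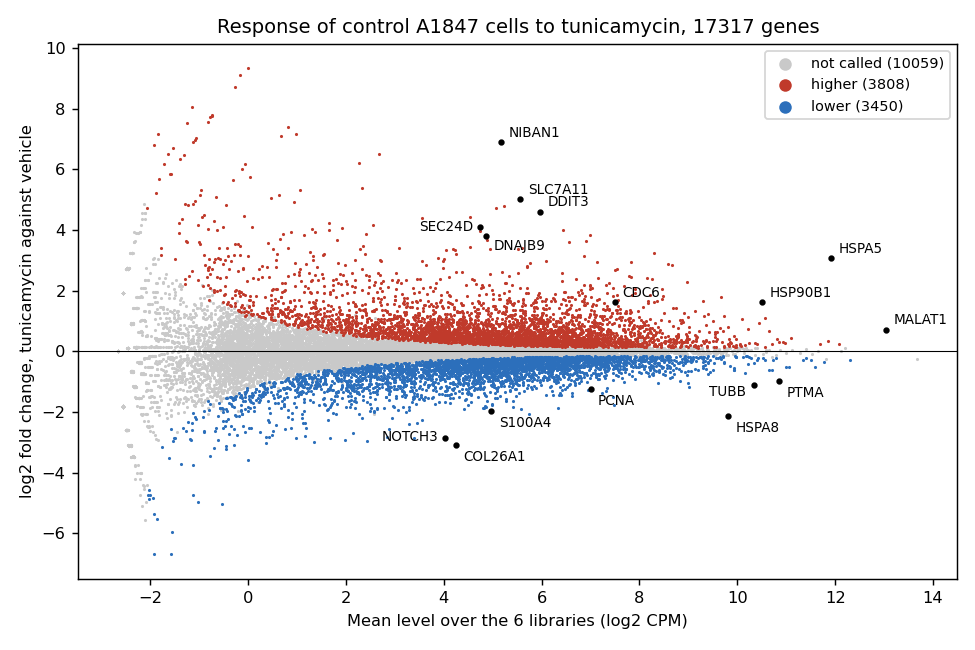
Log2 fold change (tunicamycin against vehicle) against the mean level over the 6 libraries in log2 CPM, 1 point per gene for 17317 genes, with 3808 higher genes in red, 3450 lower genes in blue and the genes not called in grey. The raised side reaches further (NIBAN1 at 6.89) than the lowered side among well-expressed genes (COL26A1 at -3.07), and HSPA8 and HSPA5 stand out among abundant mRNAs in opposite directions.

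The change in the mRNA pool was large. The genes called higher took 28.1% to 28.4% of the counts with vehicle and 40.8% to 41.7% with tunicamycin. The genes called lower went from 33.9% to 34.2% down to 23.3% to 23.6%. These shares follow from how the genes were called and describe the size of the shift only. HSPA5, which encodes the ER chaperone BiP, alone went from 0.135% to 0.140% of the counts up to 1.06% to 1.11%. Among called genes, the largest rises by difference in mean CPM were in HSPA5, the nuclear RNA MALAT1, HSP90B1, CALR, ATF4 and SDF2L1, and the largest falls in HSPA8, PTMA, HSP90AA1, TUBB, HSP90AB1 and the mitochondrial pseudogene MTND4P12, whose reads cannot be told apart from those of its mitochondrial parent. The pseudogene MTND1P23, a copy of another mitochondrial gene, differed by more CPM but its groups overlapped, with 15190, 14202 and 13634 CPM against 10199, 14975 and 11363 CPM, and it was not called. Several of the falling genes have near-identical processed pseudogenes that can share reads.

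The share of genes called grew with their level. It was 5.73% higher and 5.15% lower in the lowest of 4 equal classes of mean level, and 36.3% higher and 29.7% lower in the highest. Protein-coding genes with the shortest genomic spans (0.117 to 13.7 kb) were more often lower (27.6%) than higher (22.4%). In the other 3 of 4 equal classes of span more genes were higher than lower, for example 27.9% against 22.9% in the second. The same order held above a mean level of 3 log2 CPM, with 34.2% lower and 28.4% higher in the shortest class. Genes on chromosomes 17 and 20 were more often lower (26.4% and 29.2%) than higher (19.8% and 19.7%), and those on chromosomes 13 and X more often higher (28.2% and 26.3%) than lower (16.2% and 15.6%). Span, level and chromosome are related to each other, and their separate parts were not tested.

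Changes were ranked among called genes with a symbol, a mean level of 3 log2 CPM or more and no overlap of groups. Of these genes, COL26A1, a collagen of the extracellular matrix, fell the most. Its levels were 54.3, 51.9 and 59.0 CPM with vehicle and 5.93, 7.89 and 5.84 CPM with tunicamycin. The groups were far apart, and the fall was 8.41-fold (log2 fold change -3.07 ± 0.12 SE, edgeR adjusted p = 3.09e-12). The gene lies at chr7:101006156-101202304 of GRCh37. FAM111B, a protease gene, fell 7.29-fold from 28.0 ± 2.90 to 3.83 ± 0.384 CPM (SD, n = 3).

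NOTCH3 (chr19:15269849-15311806), a receptor of the Notch pathway, came next in that order after FAM111B. It was at 41.2, 46.3 and 42.6 CPM with vehicle and at 5.14, 7.11 and 5.92 CPM with tunicamycin. No tunicamycin library came near the vehicle libraries, and the fall was 7.15-fold (log2 fold change -2.84 ± 0.12 SE, edgeR adjusted p = 1.11e-11). The rest of the 12 largest falls were KCNJ4 and CNIH2, a potassium channel and a regulator of glutamate receptors, PAQR4, the Notch feedback gene NRARP, HSPA8, the heparan sulfate proteoglycan SDC1, S100A4, the CDK5 activator CDK5R1 and the lactate transporter SLC16A3. Their log2 fold changes ran from -2.40 (KCNJ4) to -1.93 (SLC16A3). Every tunicamycin library lay below every vehicle library, which the choice of these genes required.

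**Figure D2:**
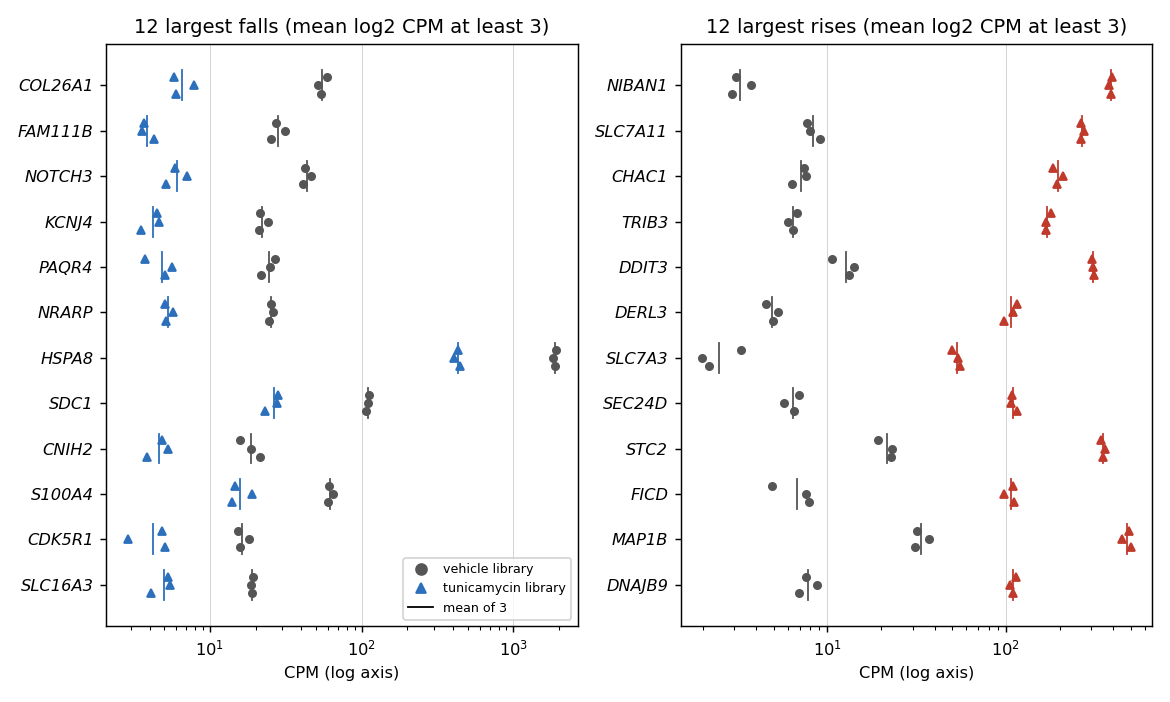
CPM on a log axis for the 12 genes with the largest falls (left) and the 12 with the largest rises (right) among genes at a mean level of 3 log2 CPM or more, with a point per library (circles vehicle, triangles tunicamycin) and a bar at the mean of 3. Only called genes with a symbol and groups that do not overlap were ranked, so the gap between groups follows from that choice. The 24 genes run from COL26A1 at 54.3, 51.9 and 59.0 against 5.93, 7.89 and 5.84 CPM to NIBAN1 at 2.91, 3.75 and 3.07 against 389, 376 and 392 CPM.

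The 12 largest rises, ranked by the same rule, were NIBAN1, SLC7A11, CHAC1, TRIB3, DDIT3, DERL3, SLC7A3, SEC24D, STC2, FICD, MAP1B and DNAJB9. NIBAN1, a stress-induced regulator of translation, rose 119-fold from 2.91, 3.75 and 3.07 CPM to 389, 376 and 392 CPM (log2 fold change 6.89 ± 0.09 SE, edgeR adjusted p = 1.73e-17). FICD, which attaches AMP to BiP, rose 15.7-fold from 6.79 ± 1.66 to 106 ± 7.19 CPM. MAP1B, a microtubule-associated protein of neurons, rose 14.4-fold from 33.3 ± 3.38 to 479 ± 29.9 CPM.

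Some genes were near absent in one group. NUPR1, a stress-induced transcription regulator, had 1, 0 and 3 counts with vehicle and 187, 166 and 214 with tunicamycin. KLHDC7B had 3, 0 and 0 counts with vehicle and 195, 134 and 184 with tunicamycin, and LAMP3, a lysosomal membrane protein, had 0, 0 and 3 and then 136, 126 and 158. FGF19, a hormone of bile acid metabolism, had no count in the 3 vehicle libraries and 57, 44 and 48 with tunicamycin, at least 52.1-fold higher against a limit of 3 counts over the vehicle group. In the other direction the numbers were small: B3GALT4, a galactosyltransferase, had 21, 22 and 23 counts with vehicle and 0, 3 and 3 with tunicamycin, and SEPTIN3 had 17, 19 and 26 and then 1, 2 and 3. HSPE1P4, a pseudogene of the mitochondrial chaperonin HSPE1, had 25, 42 and 19 counts and then 1, 1 and 0, and its reads cannot be told apart from those of its parent with certainty.

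The targets and sensors of the drug were read next. DPAGT1 rose from 43.0, 42.9 and 39.3 CPM to 67.0, 63.5 and 69.1 CPM, a 1.59-fold change (edgeR adjusted p = 1.08e-06). XBP1 rose 3.29-fold from 47.9 ± 4.78 to 157 ± 2.95 CPM, a value that sums its spliced and unspliced forms. CARM1, an arginine methyltransferase and coactivator, fell from 173, 168 and 167 CPM to 139, 147 and 141 CPM, and the groups did not overlap although the fall was only 1.19-fold. Of 10 genes listed as arginine methyltransferases and tested, PRMT6 and PRMT2 were also lower and PRMT5 was higher. FBXO11, an F-box gene whose place on this list is uncertain, was higher too.

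Of 21 genes for sensors and transcription factors of the unfolded protein response, 20 were higher and none was lower, with a median log2 fold change of 1.81. Each of the 3 sensor mRNAs rose: EIF2AK3, which encodes PERK, rose 4.69-fold from 11.6 ± 0.494 to 54.3 ± 5.90 CPM, ATF6 rose 3.71-fold from 40.3 ± 3.14 to 150 ± 3.71 CPM, and ERN1, which encodes IRE1, rose 2.78-fold from 8.53 ± 1.80 to 23.8 ± 0.265 CPM. DDIT3, which encodes the factor CHOP, rose from 13.2, 14.2 and 10.6 CPM to 311, 308 and 303 CPM, a 24.3-fold change. ERN2, the IRE1 of gut epithelium, was the member not called, at a log2 fold change of -0.21.

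ER chaperones and disulfide isomerases rose almost as a block. Of 31 tested, 28 were higher and none was lower, with a median log2 fold change of 1.44, against 22.0% higher and a median of 0.00 over all genes. The summed level of the list was 6685 to 7136 CPM with vehicle and 26465 to 27460 CPM with tunicamycin, a ratio of 3.88. HSPA5 (chr9:127997132-128003661 of GRCh37) was at 1339, 1354 and 1298 CPM and then at 11360, 11024 and 11287 CPM, and its 8.44-fold rise was the largest of any gene by CPM (edgeR adjusted p = 6.85e-17). The BiP partners DNAJB9, DNAJC3 and DNAJB11, and the nucleotide exchange factor HYOU1, had log2 fold changes of 3.82, 2.69, 2.42 and 2.87. The oxidases that recharge the isomerases differed: ERO1B rose 10.3-fold from 9.79 ± 2.93 to 99.8 ± 3.95 CPM, while ERO1A had a log2 fold change of 0.19. FKBP9, QSOX1 and FKBP7 were not called, at -0.09, 0.18 and 0.41.

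The ER stress response element, which is CCAAT, 9 bases of any kind and then CCACG, is the site through which ATF6 and NF-Y are known to act. It was searched on both strands of RefSeq promoter windows of GRCh38.p14, 250 bases before to 50 bases after the start of a gene, which matched 11770 tested genes (68.0%). Of these genes, 2909 were called higher and 2562 lower. The element was in 14 of the 11770 promoters (0.119%), 12 of them of genes called higher and none of genes called lower. Of the 14, 6 (HSPA5, HSP90B1, CALR, CANX, CRELD2 and ERO1B) belonged to the 28 chaperones with a window. Shown here, with the element in capitals, are the 2 that rose most, HSPA5 (chr9:125241366-125241434, minus strand, the element as spelled) and ERO1B (chr1:236282158-236282208, minus strand, as the reverse complement). The CCAAT box alone, which this element contains, was in 36.7% of all windows, 43.4% of those of higher genes and 33.2% of those of lower genes.
HSPA5: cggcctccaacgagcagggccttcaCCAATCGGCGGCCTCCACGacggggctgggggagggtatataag
ERO1B: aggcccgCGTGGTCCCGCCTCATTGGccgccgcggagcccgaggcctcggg

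Of 28 genes of ER-associated degradation, which returns misfolded proteins to the cytosol for the proteasome, 22 were higher and 1 lower, with a median log2 fold change of 1.15. DERL3 rose 21.8-fold from 4.93, 5.28 and 4.54 CPM to 97.0, 109 and 115 CPM. SEL1L and SYVN1, the core of the ubiquitin ligase complex, rose 12.4-fold and 7.53-fold, and their cofactor HERPUD1 rose 12.2-fold from 26.9 ± 2.89 to 329 ± 9.43 CPM. The member called lower, the ubiquitin-conjugating enzyme UBE2G2, had a log2 fold change of -0.19, and its call was lost without either of 2 libraries.

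The route into the ER and out to the Golgi rose with them. Of 25 genes of signal recognition, the translocon and signal peptidase, 19 were higher and 1 lower (median 0.90), from SEC61G at 0.42 to SEC11C, a signal peptidase subunit, at 1.97. Of 39 genes of ER to Golgi traffic, 33 were higher and 1 lower (median 0.94). Paralogs of the COPII coat moved unequally: SEC24D rose 17.2-fold from 6.46, 5.74 and 6.91 CPM to 115, 106 and 109 CPM, and SEC23B rose 5.20-fold, while SEC24A, SEC24C and SEC23A had log2 fold changes of 0.91, 0.65 and 0.50. SEC24B was the member called lower, at -0.27, and that call was lost with DESeq2 and without any of 4 libraries.

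The sequence TGACGTGG, bound by XBP1 and ATF6, was found in 109 promoter windows (0.926%), of which 57 were of genes called higher and 14 of genes called lower. Of 39 tested genes of ER to Golgi traffic, 33 were called higher. Of the 34 with a window, 8 (23.5%) held the sequence, and all 8 were called higher: KDELR3, SEC23A, SEC24A, SEC16A, COPA, COPB1, COPB2 and STX5. The 2 of these that rose most among those with the element upstream of the start, here in capitals, were STX5, a Golgi SNARE that rose 3.75-fold (chr11:62832052-62832092, minus strand), and COPB1, a subunit of the COPI coat (chr11:14499827-14499884, minus strand, as the reverse complement).
STX5: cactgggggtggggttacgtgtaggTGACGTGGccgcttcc
COPB1: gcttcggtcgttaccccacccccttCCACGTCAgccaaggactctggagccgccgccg

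N-glycan synthesis, the pathway that the drug blocks, moved less. Of 41 genes tested, 27 were higher and 4 lower, with a median log2 fold change of 0.41. The largest rises were at the supply of the sugar nucleotide: GFPT1, the first enzyme of hexosamine synthesis, rose 4.54-fold from 54.7, 56.3 and 53.8 CPM to 243, 248 and 258 CPM, and PGM3 rose 3.78-fold. ALG12, a mannosyltransferase, and MAGT1, a subunit of the oligosaccharyltransferase, had log2 fold changes of 1.73 and 1.83. The catalytic subunits STT3A and STT3B rose by 0.78 and 0.40. DOLK, the kinase that makes dolichol phosphate, fell from 35.1, 33.7 and 33.9 CPM to 22.3, 19.7 and 22.0 CPM, and DPM3, OST4 and PRKCSH were also lower.

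In the Golgi the direction was the opposite for many enzymes. Of 47 glycosyltransferases and enzymes of proteoglycan synthesis, 21 were lower and 4 higher, with a median log2 fold change of -0.27. MGAT3, which adds the bisecting N-acetylglucosamine, fell 4.57-fold from 17.5, 16.8 and 14.2 CPM to 3.66, 3.99 and 2.96 CPM (edgeR adjusted p = 1.13e-08). MGAT4B, which opens a further branch, fell 3.11-fold from 68.1 ± 1.69 to 21.9 ± 1.37 CPM, and MGAT5 had a log2 fold change of -1.38. The sialyltransferases ST6GAL1 and ST3GAL4 fell 2.77-fold and 2.83-fold, and XYLT2, which starts proteoglycan chains, fell 2.36-fold. MGAT2 was an exception, with a rise from 10.3, 11.6 and 14.3 CPM to 36.7, 33.7 and 35.0 CPM.

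Genes known to be driven by ATF4 and CHOP had the largest median rise of all 43 lists. Of 25 tested, 22 were higher and 1 lower, with a median log2 fold change of 2.93. Some lists share members. ATF3, ATF5, TRIB3, NUPR1 and CEBPG are also in the list of unfolded protein response factors, and ASNS and SLC7A11 among the amino acid genes. ATF3, a factor induced by many stresses, rose 90.4-fold from 0.404, 0.612 and 0.768 CPM to 55.0, 56.3 and 54.8 CPM. SESN2, an inhibitor of mTORC1 signalling, rose 9.45-fold from 102 ± 3.47 to 965 ± 23.2 CPM, and PPP1R15A, the phosphatase subunit that restores eIF2α, rose 10.4-fold. Secreted products rose too: INHBE from 0.511 ± 0.366 to 38.0 ± 2.41 CPM, the stress hormone GDF15 from 14.8 ± 1.26 to 158 ± 15.6 CPM and VEGFA from 18.2 ± 1.90 to 48.9 ± 3.25 CPM. FGF21 had no count in the vehicle libraries and stood at 1.40, 1.13 and 1.04 CPM with tunicamycin.

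Genes of amino acid supply, some of them known ATF4 targets, were mostly higher, and the part of ATF4 was not tested. Of 24 genes of amino acid and one-carbon synthesis, 18 were higher and 1 lower (median 0.78), among them ASNS, asparagine synthetase, which rose 7.64-fold from 50.7, 50.7 and 51.6 CPM to 363, 402 and 404 CPM. Of 23 amino acid transporters, 15 were higher and 2 lower (median 0.84). SLC7A11, the cystine carrier, rose 32.3-fold from 8.28 ± 0.754 to 267 ± 6.25 CPM, its partner SLC3A2 rose 5.66-fold, and SLC6A6, the taurine transporter, fell from 2.26, 2.98 and 2.37 CPM to 0.262, 0.260 and 0.639 CPM. Of 24 cytosolic tRNA synthetases and their partners, 21 were higher and none was lower (median 0.66). WARS1 led with a 6.64-fold rise from 71.8 ± 1.30 to 477 ± 20.9 CPM, and RARS1, TARS3 and KARS1 were not called, at -0.11, 0.07 and 0.13.

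The sequence TGATGNAA, the core of the elements that pairs of ATF4 and C/EBP factors bind, was searched on both strands in the same windows. It was in 217 promoter windows (1.84%), 75 of genes called higher and 33 of genes called lower. Of the 19 tRNA synthetase genes with a window, 6 held it (AARS1, CARS1, IARS1, MARS1, NARS1 and TARS1, all called higher), and so did 4 of 19 outputs of ATF4 and CHOP (ASNS, ATF3, CHAC1 and FGF21). The stretches around it, in capitals, are shown for the members with the largest rises whose element lies upstream of the start: AARS1 (chr16:70289661-70289718, minus strand, as the reverse complement), ATF3 (chr1:212565191-212565248, plus strand) and FGF21 (chr19:48755445-48755502, plus strand, as the reverse complement).
AARS1: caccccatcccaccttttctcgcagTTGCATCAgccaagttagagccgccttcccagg
ATF3: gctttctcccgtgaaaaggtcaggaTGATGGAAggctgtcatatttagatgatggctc
FGF21: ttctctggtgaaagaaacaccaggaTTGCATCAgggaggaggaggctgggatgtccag

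**Figure D3:**
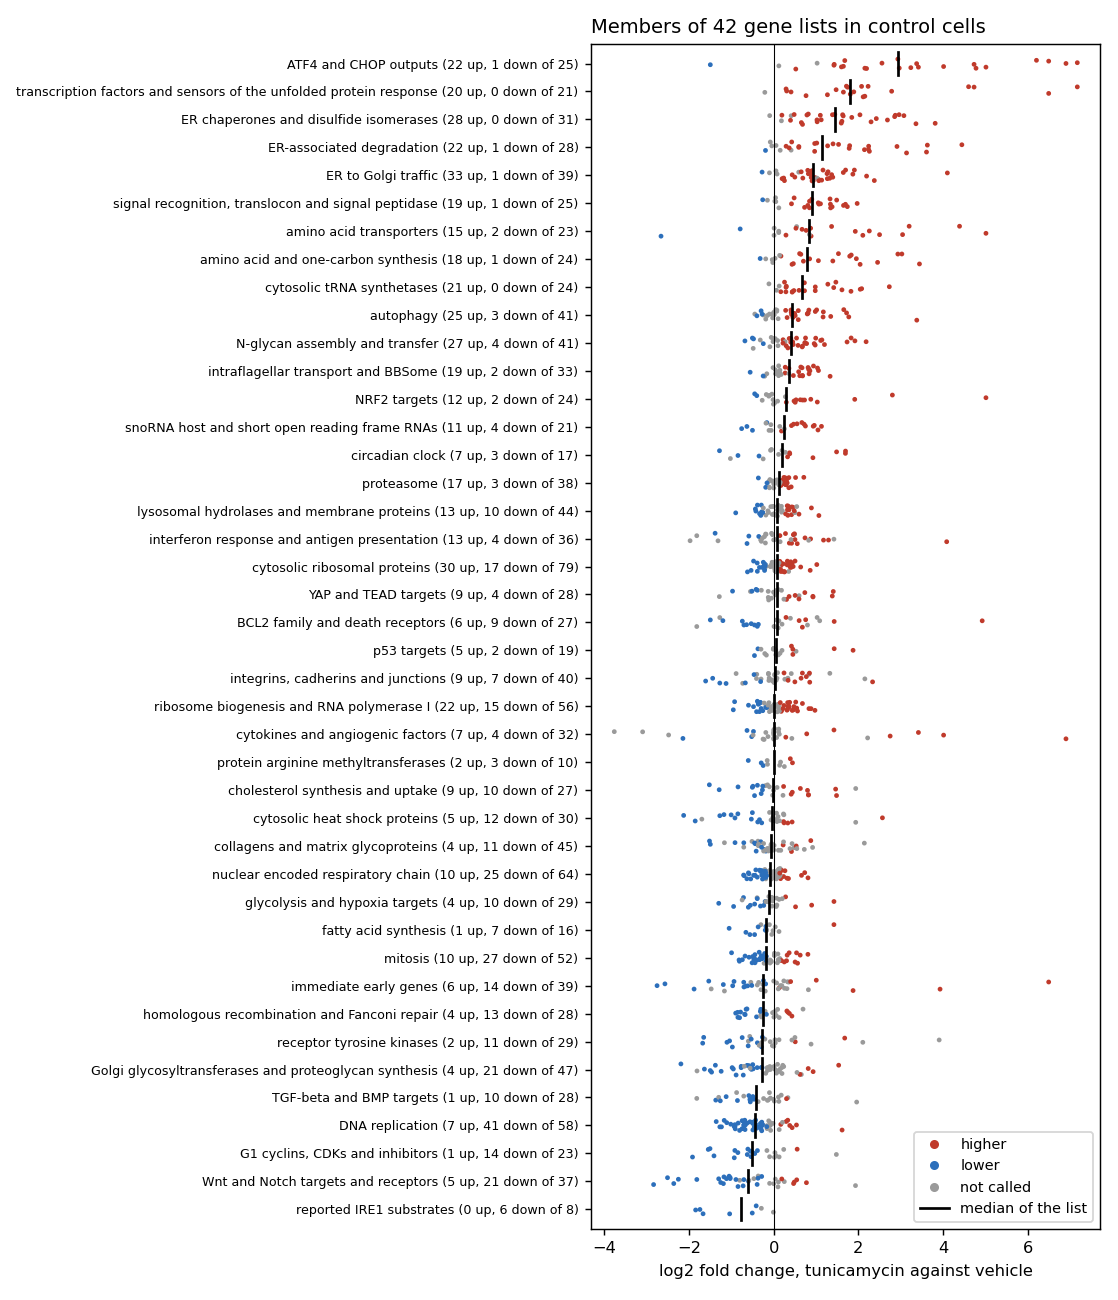
Log2 fold change (tunicamycin against vehicle) of each tested member of 42 gene lists, 1 row per list ordered by its median (black bar), with members called higher in red, called lower in blue and not called in grey. Lists of the ER and of ATF4 outputs sit on the right, up to a median of 2.93, and reported IRE1 substrates, Wnt and Notch genes, G1 cyclins and DNA replication on the left, down to -0.77.

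Most of the DNA replication genes were lowered. Of 58 tested, 41 were lower and 7 higher, with a median log2 fold change of -0.44, against 19.9% lower over all genes. In bulk RNA, fewer cells in S phase and less RNA per cell cannot be told apart. CLSPN, the checkpoint adaptor at forks, fell 2.56-fold from 253, 251 and 223 CPM to 104, 87.6 and 92.2 CPM (edgeR adjusted p = 2.05e-10). PCNA, the sliding clamp, fell 2.35-fold from 183, 195 and 213 CPM to 90.0, 80.1 and 81.2 CPM. The 6 subunits of the replicative helicase were all lower, from MCM4 at -1.02 to MCM7 at -0.28, and so were the histone chaperones CHAF1A, CHAF1B and ASF1B. The size of the falls was modest beside the rises of the ER genes, and the summed level of the list went from 7098 to 7224 CPM down to 5342 to 5526 CPM.

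CDC6, which loads the helicase at origins, moved the other way. It stood at 103, 104 and 104 CPM with vehicle and at 318, 319 and 314 CPM with tunicamycin. The libraries of each group lay within a few CPM of each other, and the rise was 3.06-fold (log2 fold change 1.62 ± 0.05 SE, edgeR adjusted p = 5.79e-13). The other loading factors divided: ORC1 and CDT1 fell, with log2 fold changes of -0.71 and -0.91, ORC3, ORC5 and ORC6 rose by 0.44, 0.38 and 0.30, and ORC2, at 0.13, was not called. CDC45, POLD1 and RFC1 were the remaining higher members, with log2 fold changes of 0.33, 0.54 and 0.17.

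**Figure D4:**
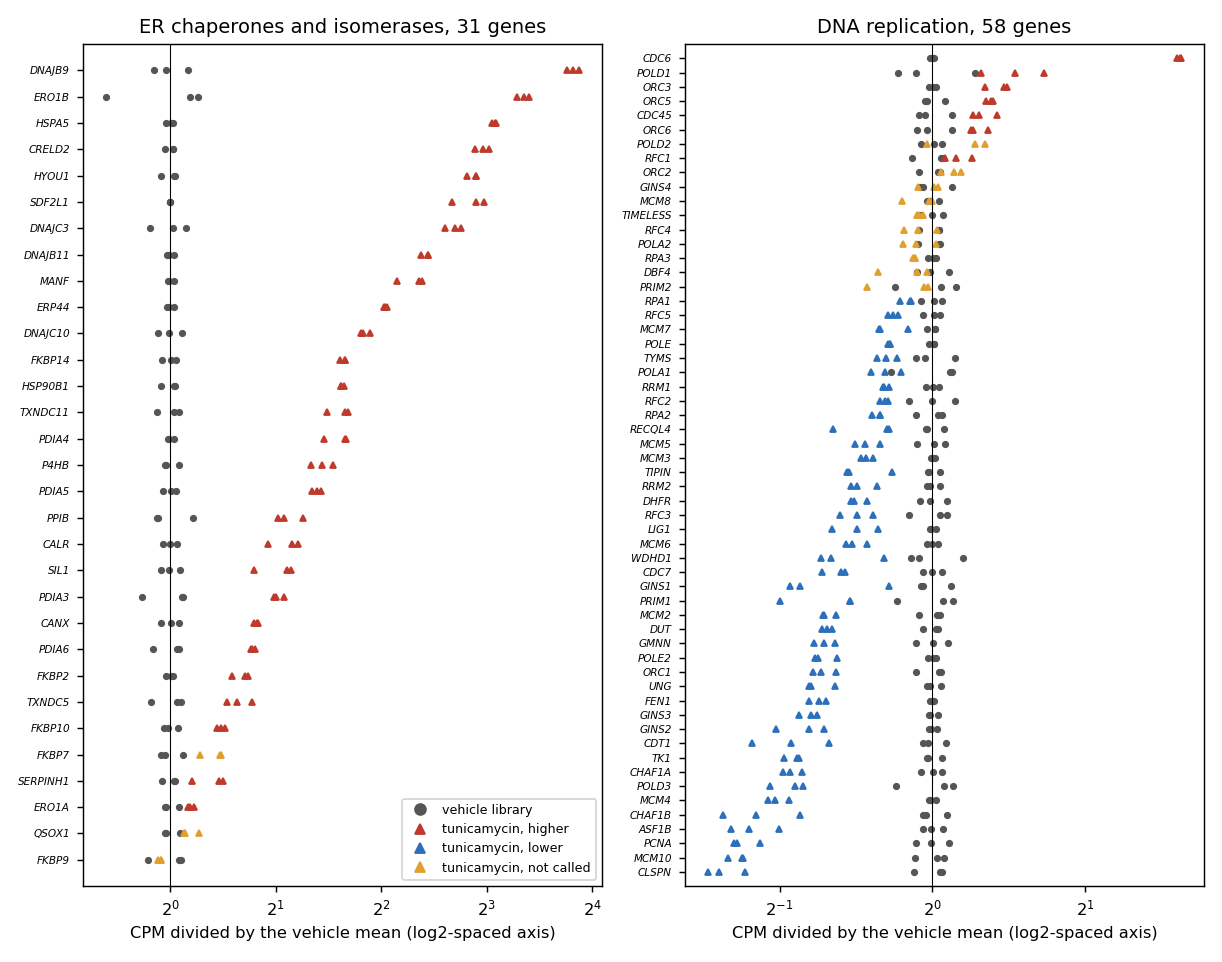
CPM of each library divided by the mean of the vehicle libraries, on a log2-spaced axis, for 31 ER chaperones and isomerases (left) and 58 DNA replication genes (right), with dark grey circles for vehicle and triangles for tunicamycin libraries in red (called higher), blue (called lower) or orange (not called). On the left 28 genes are higher and none lower, and on the right 41 are lower and 7 higher with CDC6 at the top.

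The E2F sites TTTCCCGC and TTTGGCGC were in 415 promoter windows (3.53%), of which 121 belonged to genes called lower and 90 to genes called higher. Of 50 replication genes with a window, 18 (36.0%) held one, and these were 15 lower genes, 2 higher genes (CDC6 and ORC3) and 1 not called (MCM8). The sequences of PCNA (chr20:5126649-5126706, minus strand) and CDT1 (chr16:88803729-88803786, plus strand), both with the site as the reverse complement, are shown, with the site in capitals, as the lowered members with the largest falls whose site lies upstream of the start.
PCNA: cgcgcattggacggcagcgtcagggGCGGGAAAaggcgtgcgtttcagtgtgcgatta
CDT1: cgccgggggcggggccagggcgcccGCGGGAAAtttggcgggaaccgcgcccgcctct

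The genes of the G1 phase were also lower. Of 23 cyclins, kinases, inhibitors and E2F factors, 14 were lower and 1 higher, with a median log2 fold change of -0.50. CCNE1, the cyclin of S phase entry, fell 2.92-fold from 53.8, 58.7 and 56.6 CPM to 19.9, 18.7 and 19.3 CPM, and CCND1 fell 1.89-fold from 195 ± 1.60 to 103 ± 3.08 CPM. The factors E2F1, E2F2 and E2F8 fell, with log2 fold changes of -0.85, -1.51 and -1.92. CDKN1B, which encodes the inhibitor p27, was the higher member, with a 1.47-fold rise, and CDKN1A, which encodes p21, was at 33.9, 28.3 and 29.0 CPM and then at 35.1, 25.8 and 33.5 CPM, with overlapping groups.

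Mitotic genes were mixed. Of 52 tested, 27 were lower and 10 higher, with a median log2 fold change of -0.19. SPC24, a kinetochore subunit, fell 1.99-fold from 50.1 ± 1.89 to 25.1 ± 1.73 CPM, and MKI67 fell 1.60-fold from 360, 386 and 317 CPM to 233, 217 and 215 CPM. KIF2C rose 1.75-fold from 68.6 ± 2.19 to 120 ± 6.29 CPM, and CCNB2, CENPA and CDC20 were higher while CCNB1 and CDK1 were lower. The sequence TTTGAA, the core of the cell cycle homology region, stood in 31 of 45 mitotic windows (68.9%) against 1177 of all 11770 windows, on either strand. The 31 were 15 lower, 6 higher and 10 not called genes, beside 27 lower and 10 higher of all 52 tested. ANLN (chr7:36389811-36389861, plus strand) and MKI67 (chr10:128126424-128126495, minus strand) were the lowered members with the largest falls among those with it upstream of the start, and it is in capitals.
ANLN: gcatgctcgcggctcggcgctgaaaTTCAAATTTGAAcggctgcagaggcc
MKI67: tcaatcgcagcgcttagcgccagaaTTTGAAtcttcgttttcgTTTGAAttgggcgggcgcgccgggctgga

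**Figure D5:**
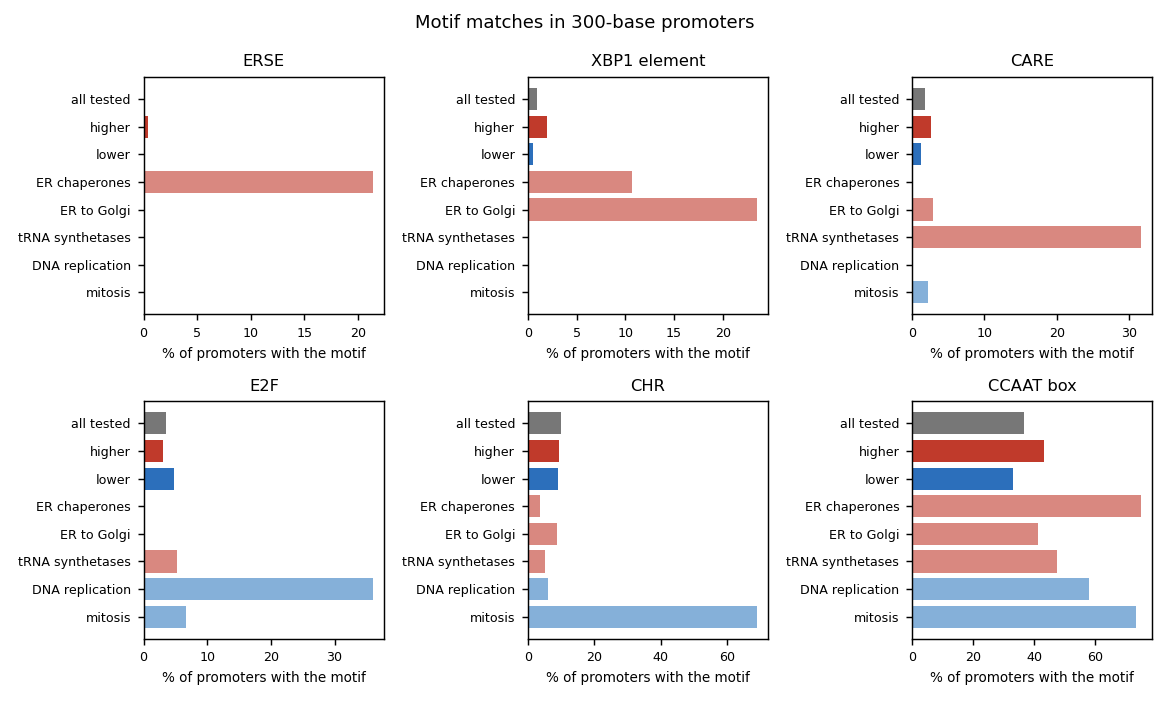
Percent of 300-base promoter windows holding each of 6 motifs, with a bar for all 11770 tested genes with a window (grey), those called higher (red), those called lower (blue) and 5 gene lists (pale red and pale blue), each panel with its own axis from 0. The ER stress response element is in 21.4% of chaperone windows against 0.119% of all, the E2F sites in 36.0% of replication windows against 3.53%, and TTTGAA in 68.9% of mitotic windows against 1177 of all 11770.

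Of 28 genes of homologous recombination and the Fanconi pathway, 13 were lower and 4 higher, with a median log2 fold change of -0.25. BARD1 fell 1.86-fold from 59.8 ± 3.02 to 32.1 ± 0.461 CPM. BRCA1, the partner of BARD1, rose 1.35-fold from 108, 116 and 106 CPM to 157, 139 and 148 CPM.

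Notch and Wnt genes fell broadly. Of 37 targets and receptors tested, 21 were lower and 5 higher (23 and 2 with library totals), with a median log2 fold change of -0.60. Beside NOTCH3 and NRARP, the receptor NOTCH1 fell 3.52-fold from 7.76, 6.89 and 7.12 CPM to 1.57, 1.99 and 2.56 CPM, the ligand JAG2 fell 5.14-fold, LFNG, which glycosylates Notch receptors, had a log2 fold change of -2.51, and the targets HES1, HEY1 and HEYL fell by 1.30, 1.03 and 0.89 on the log2 scale. HES1 was at 115, 118 and 118 CPM with vehicle and at 48.6, 49.4 and 44.4 CPM with tunicamycin. The ligand JAG1 had a rise of 0.54, which was lost without either of 2 libraries. On the Wnt side, AXIN2 fell 2.17-fold from 5.93 ± 0.350 to 2.73 ± 0.361 CPM, and LRP5, FZD4, ZNRF3 and TCF7 fell, with log2 fold changes of -1.19, -1.18, -1.05 and -1.25.

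Other signalling genes leaned the same way. Of 28 genes of the TGF-beta and BMP pathways, 10 were lower and 1 higher (median -0.42), with SMAD7 and SKI, inhibitors of the pathway, at -1.37 and -1.12. Of 29 receptor tyrosine kinases, 11 were lower and 2 higher (median -0.27; 13 and 1 with library totals), with TYRO3, FGFR3 and ROR2 at -1.68, -1.65 and -1.10. DDR2, a collagen receptor, was the exception of size, with a rise from 361, 358 and 341 CPM to 1154, 1078 and 1161 CPM. EGFR was the other higher member, at 0.51, a call that was lost with DESeq2, with library totals only and without any of 4 libraries. Of 39 immediate early genes, 14 were lower and 6 higher (median -0.24): JUNB fell 3.69-fold from 54.8 ± 3.90 to 14.9 ± 3.18 CPM, while NR4A2 rose 15.2-fold from 0.583 ± 0.174 to 8.98 ± 0.987 CPM and GADD45A rose 3.67-fold.

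Of 8 mRNAs that have been reported as IRE1 substrates in other cells, 6 were lower and none was higher, with a median log2 fold change of -0.77. PMP22, a membrane protein of myelin, had a log2 fold change of -1.84. CD59, a complement inhibitor, fell 3.35-fold from 59.2, 55.1 and 58.9 CPM to 16.4, 17.9 and 17.3 CPM. SCARA3 fell 3.18-fold and BLOC1S1, the substrate most often used as a marker, fell 2.06-fold from 30.9, 32.4 and 38.8 CPM to 16.8, 18.9 and 14.1 CPM. SPARC and PDGFRB were not called, at -0.01 and -0.29.

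Heat shock genes, mainly of cytosolic proteins, divided. Of 30 tested, 12 were lower and 5 higher (14 and 3 with library totals), and the median log2 fold change was -0.04, while their summed level went from 16569 to 17509 CPM down to 12438 to 13066 CPM. The sum also includes the mitochondrial HSPD1 and HSPE1, and the list names the transcription factors HSF1 and HSF2. HSPA8 (chr11:122928197-122933938), the constitutive HSP70, fell 4.37-fold from 1894, 1817 and 1919 CPM to 446, 408 and 433 CPM (log2 fold change -2.13 ± 0.05 SE, edgeR adjusted p = 1.60e-14). HSPA1A and HSPA1B are near copies, so their separate values are uncertain. DNAJB1, HSPH1 and DNAJA1, partners of HSPA8, fell by 1.01, 0.85 and 0.92 on the log2 scale. HSP90AA1 and HSP90AB1 fell 1.42-fold and 1.22-fold. HSPE1, the co-chaperonin of mitochondria, fell 2.26-fold from 773 ± 44.9 to 342 ± 16.2 CPM, while HSPD1, its partner, whose annotated span holds HSPE1, was at 1264, 1268 and 1096 CPM and then at 1282, 1265 and 1238 CPM, with overlapping groups. DNAJB5 was the higher member of largest size, at 2.57.

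TUBB, a beta tubulin, fell 2.15-fold from 1916, 1883 and 1874 CPM to 864, 926 and 848 CPM (edgeR adjusted p = 2.41e-11). PTMA, prothymosin alpha, fell 1.98-fold from 2619 ± 270 to 1325 ± 28.0 CPM.

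Cholesterol synthesis and uptake had 10 lower and 9 higher of 27 genes (median -0.02). INSIG1, which holds the SREBP factors in the ER, fell 2.87-fold from 30.4, 29.5 and 28.6 CPM to 9.33, 9.62 and 11.8 CPM. INSIG2, STARD4 and HSD17B7 rose 1.74-fold, 2.76-fold and 2.80-fold. Of 16 genes of fatty acid synthesis, 7 were lower and 1 higher (median -0.18): FASN fell 1.48-fold from 521 ± 9.33 to 353 ± 13.7 CPM, ELOVL6 fell 2.08-fold, and ME1, which makes NADPH, rose 2.68-fold.

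Of 64 nuclear genes of the respiratory chain, 25 were lower and 10 higher (median -0.09), or 34 and 5 with library totals. The higher count was 6 without vehicle replicate 2 and 5 without tunicamycin replicate 3. The falls were small, from NDUFB3 at -0.71 to NDUFV2 at -0.15. Of 29 genes of glycolysis and hypoxia, 10 were lower and 4 higher, among them LDHA, which fell 1.52-fold from 1198 ± 33.5 to 791 ± 15.3 CPM. The 79 ribosomal protein genes had 30 higher and 17 lower members (16 and 22 with library totals, and 16 higher without vehicle replicate 2 or without tunicamycin replicate 3), and their summed level was 62549 to 66615 CPM with vehicle and 63896 to 68569 CPM with tunicamycin. Many of them have near-identical pseudogenes, and RPS18, at 383, 384 and 835 CPM with vehicle, varied widely between libraries of 1 group.

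Genes of cell death moved in both directions. Of 27 genes of the BCL2 family, caspases and death receptors, 9 were lower (33.3%) and 6 higher (22.2%), against 19.9% and 22.0% over all genes. TNFRSF10B, a death receptor, rose 2.69-fold from 40.1, 36.7 and 41.8 CPM to 109, 107 and 104 CPM, and HRK, a BH3-only protein, rose from 0.404, 0.153 and 0.279 CPM to 11.7, 6.07 and 8.39 CPM. BCL2L11, which encodes the BH3-only protein BIM, fell 2.83-fold from 20.6 ± 2.67 to 7.27 ± 0.860 CPM, and CASP2, BID, BAX and BAK1 were lower. BBC3 and PMAIP1 were not called, at 0.12 and 1.03. Of 19 p53 targets, 5 were higher (26.3%) and 2 lower (10.5%), or 4 and 5 with library totals.

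Autophagy genes were more often higher than lower, with 25 and 3 of 41 (median 0.42). CCPG1, a receptor for the degradation of ER, rose 10.4-fold from 15.8, 13.2 and 13.3 CPM to 165, 134 and 141 CPM, and WIPI1, ATG13 and GABARAPL1 had rises of 1.72, 1.77 and 1.66. Lysosomal genes were divided, with 13 higher and 10 lower of 44 (11 and 12 with library totals). These were 29.5% and 22.7%, against 22.0% and 19.9% over all genes. Proteasome genes had 17 higher and 3 lower of 38 (13 and 7 with library totals), with small changes led by PSMA5 at 0.71. Of 24 NRF2 targets, 12 were higher and 2 lower (median 0.29; 12 and 5 with library totals), with OSGIN1 at 2.80, HMOX1 at 1.91 and SRXN1 at -0.45.

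Of 33 genes of intraflagellar transport and the BBSome, which build the primary cilium, 19 were higher and 2 lower (median 0.36). IFT172 rose 2.52-fold from 4.28, 3.52 and 5.59 CPM to 9.50, 12.5 and 11.9 CPM, and IFT122 and TULP3 had rises of 1.04 and 1.06. Host RNAs of small nucleolar RNAs rose in 11 of 21 cases and fell in 4: SNHG1, ZFAS1 and GAS5 rose 2.06-fold, 2.19-fold and 1.91-fold, the last from 217, 233 and 239 CPM to 459, 419 and 439 CPM. Of 56 genes of ribosome biogenesis, 22 were higher and 15 lower (16 and 22 with library totals), and UBTF, a factor of RNA polymerase I, fell 1.90-fold.

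Matrix and surface genes varied. Of 45 collagens and matrix glycoproteins, 11 were lower (24.4%) and 4 higher (8.89%), against 19.9% and 22.0% over all genes. With library totals 14 were lower and 2 higher. LOXL1, LAMA5 and COL1A1 were at -1.52, -1.50 and -0.71, and the largest rise of a member, called or not, was 2.14. Of 40 integrins, cadherins and junction genes, 9 were higher (22.5%) and 7 lower (17.5%), near the 22.0% and 19.9% over all genes. PCDH1 was at 2.34, ITGA5 at 0.85 and ITGB5 at -1.13. With library totals the counts of this list were 7 and 9. Of 28 targets and factors of YAP and TEAD, 9 were higher and 4 lower, or 8 and 7 with library totals. CCN1 rose 2.61-fold from 107, 97.6 and 103 CPM to 268, 272 and 263 CPM, and CCN2 rose 2.65-fold. Of 36 interferon and antigen presentation genes, 13 were higher and 4 lower, with ISG20 at 4.09, IRF1 at 1.30 and IFIT1 at -1.38. Of 32 cytokines and angiogenic factors, 7 were higher (21.9%) and 4 lower (12.5%), and CXCL8, IL6 and IL1A had no count in any of the 6 libraries. With DESeq2 2 were lower, and without tunicamycin replicate 2 there were 4 higher. Of 17 clock genes, 7 were higher and 3 lower, with PER1 and CRY1 at 1.70 and 1.49. Of 509 tested genes of the ZNF family, 112 (22.0%) were higher and 72 (14.1%) lower, against 22.0% and 19.9% over all genes. With library totals 84 were higher and 88 lower.

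The same contrast was read in the libraries that the calls above did not use. In XBP1 knockdown cells, with 3333 genes higher (19.2% of all tested) and 3297 lower (19.0%), 2703 of the 3808 raised genes (71.0%) were called higher and 11 lower, and 2601 of the 3450 lowered genes (75.4%) were called lower and 2 higher. In CARM1 knockout cells, with 3572 higher (20.6%) and 3264 lower (18.8%), 2132 of the raised genes (56.0%) were called higher and 180 lower, and 1664 of the lowered genes (48.2%) were called lower and 180 higher. The median log2 fold change of the lowered genes was -0.56 in control, -0.47 in knockdown and -0.23 in knockout cells, and that of the raised genes 0.62, 0.45 and 0.30. Since the genes were chosen in the control cells, their medians there are larger in part by that choice. The difference between genotypes in these counts was not tested. HSPA8 had log2 fold changes of -2.13, -2.12 and -1.75 in control, knockdown and knockout cells, CDC6 of 1.62, 1.13 and 1.53, and NOTCH3 of -2.84, -3.00 and -1.21.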

How the data were processed

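The authors sequenced 3′ mRNA libraries with 75 nt single reads, aligned them with bowtie2 to hg19 and deposited RSEM estimated counts per Ensembl gene as whole numbers. The Ensembl release is not given in the sources used here, nor whether strand was used, so reads of overlapping or antisense genes and of near-identical copies cannot be told apart. A 3′ count measures mRNA ends, not splicing. Mitochondrially encoded mRNAs were not analysed here, since none of the 13 on the list was in the table.

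All 18 value columns were matched to a sample by name, and 0 were not. Of 57736 genes, 17317 passed filterByExpr (minimum count 10, groups of all 18 libraries). The 6 control libraries were fitted alone with edgeR 4.0.16 in R 4.3.3 (TMM factors, quasi-likelihood test, Benjamini-Hochberg adjustment over all genes tested, calls below 0.05). The other genotypes were fitted the same way, each alone. DESeq2 1.42.0 was an alternative, beside other scalings, filters, thresholds and each library left out. Scripts were tested on simulated data in 3 draws, each with 200 of 17317 genes changed. There 10.7% to 14.3% of edgeR's calls were false, above the nominal 5%, and 5.73% to 8.65% of those of DESeq2. Far more genes were called in the real data, where the false share was not measured. Libraries of a group differed by 2.376 to 6.999 times the sampling variance (chi-square per degree of freedom), so none was a copy of another. Library totals of 11774445 to 13788924 set the precision for rare mRNAs.

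The 43 gene lists and the members were chosen with earlier results of these data known, so a list's count is a description. Named genes were the 12 largest rises and falls among called genes at a mean level of 3 log2 CPM or more. Only genes with a symbol and groups that did not overlap were ranked there. Also named were the 6 largest rises and falls in CPM and the 2 largest in each direction of each list. Genes near absent in either group (at most 3 counts) were added. Pseudogenes, readthrough genes and unnamed RNAs were passed over unless stated. Other members given as examples were chosen after their values were seen. A few genes that the rule names are not reported here. Gene positions are those of GRCh37, the coordinates of hg19, and promoter sequences are from RefSeq on GRCh38.p14.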

Additional observations from a re-analysis of the deposited data

Results flagged for a closer look

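Among the 180 named genes, 12 moved in every library one way in control cells and in every library the opposite way in another genotype. In control cells the groups did not overlap for 49.9% of all genes tested, and opposite moves were not counted over all genes. The difference between genotypes was not tested for any of them. In XBP1 knockdown cells this was AGRN, a matrix proteoglycan, with a log2 fold change of 0.88 in control and -0.52 in knockdown cells. In CARM1 knockout cells, 5 genes that rose in control cells went down: the YAP targets CCN1 (1.38 in control, -0.48 in knockout cells) and CCN2 (1.41 and -0.19), the integrin ITGA5 (0.85 and -0.61), the Wnt antagonist DKK3 (0.77 and -0.18) and the chaperone DNAJB4 (0.43 and -0.67). A further 6 that fell in control cells went up: the phosphatase DUSP5 (-2.57 and 0.47), the clock genes NPAS2 (-1.28 and 0.28) and NR1D1 (-0.84 and 0.73), the snoRNA host SNHG10 (-0.76 and 0.36), the proline enzyme PYCR3 (-0.32 and 0.44) and the pseudogene MTND4P12 (-0.34 and 0.30). In the other genotype's own edgeR fit, the adjusted p missed 0.05 for AGRN (0.278), SNHG10 (0.162) and NPAS2 (0.209). On the control side, the calls of AGRN, DKK3, DNAJB4 and NPAS2 were lost with DESeq2 (adjusted p = 0.113, 0.0648, 0.106 and 0.0828) and on leaving out any one of 4 libraries, and that of PYCR3 on leaving out any one of 3.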

How the results depend on the processing

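The counts of called genes stayed within 1.5 times the reported ones under the other scalings, filters, DESeq2, the fit of all 18 libraries, the replicate block and each library left out (3250 to 3676 higher and 3012 to 3249 lower without 1 library). With DESeq2, 3367 genes were higher and 3108 lower. A threshold on size moved them by its construction, to 2011 higher and 1650 lower at a fold change of at least 1.5, and to 1020 and 708 at 2. With that 1.5-fold threshold in both genotypes, 1247 of 2011 raised and 1047 of 1650 lowered genes were called the same way in XBP1 knockdown cells, where 1533 and 1396 were called, and 760 and 397 in CARM1 knockout cells, where 1357 and 1058 were called. Scaling by library totals gave 3049 higher and 4329 lower genes, 41.3% of calls higher. With the replicate number as a block, 3825 genes were higher and 3443 lower. Deviations of same-numbered libraries correlated at 0.037, -0.037 and 0.137, the last being the highest of all pairs across the groups. Tunicamycin replicate 1 correlated best with vehicle replicate 2 (0.107). All were weak, so the numbers were not taken as pairs. Of 180 named genes under these alternatives (2496 values), 98 values in 20 genes lost their call and 0 changed direction. Of 86 counts (higher and lower members of 43 lists), 21 moved by over 1.5 times under at least 1 alternative, mostly counts of 5 or fewer. A planned description of protein features was not run. Depth limits the genes with few counts: in the lowest of 4 classes of level, 5.73% were higher and 5.15% lower.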
